A study of Mus musculus with 16 samples.

Results

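The transcripts of 7 genes of parathyroid hormone (PTH) receptor and cAMP signalling were followed in cultured mouse marrow stromal cells with and without a label of Zfp384 knockout. They are the receptor Pth1r, the G protein gene Gnas, the protein kinase A (PKA) subunits Prkaca and Prkar1a, the phosphodiesterase Pde4d and the transcription factors Creb1 and Crem. Members were taken by gene symbol from the deposited count table, and all 7 were found among its 13474 genes. Of the 7, the receptor moved by far the most: at day 7 Pth1r had 158 ± 18.5 CPM (counts scaled to 1000000 per library) in KO cultures and 29.5 ± 2.48 CPM in WT cultures (SD, n = 4 libraries each), and at day 3 it had 10.7 ± 2.12 CPM in KO cultures and 2.04 ± 0.312 CPM in WT cultures. Prkar1a and Prkaca were lower in KO at both days, and Pde4d, Creb1 and Crem were higher in KO at both days. The direction of Prkaca turned at both days under library sizes implied by the authors' scaled columns. Relative to the median change of their chromosomes, Pde4d turned to -0.30 on the log2 scale at day 7 and Crem to -0.090 at day 3.

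Libraries came from mesenchymal stem/progenitor cells (MSPCs) of C57BL/6 mouse bone marrow at passage 5 to 10. KO stands here for libraries labelled as Nmp4-/- (Nmp4 is the protein of Zfp384, a zinc finger transcription factor), and WT for wild type. Day 7 cultures were seeded at 25000 cells per well in α-MEM with 10% fetal bovine serum, antibiotics and glutamine. From 48 hours they also received 5 µg/mL ascorbic acid, 10 nM dexamethasone and 10 mM glycerol 2-phosphate, which makes them early osteogenic cultures. Day 3 cultures were seeded at 10000 cells per well in a Mesencult stem cell medium with its supplement and had no such treatment. No group was given PTH, so the levels describe cells without added hormone. Each of the 4 groups (KO and WT at day 7, KO and WT at day 3) held 4 libraries from wells of 1 biological replicate, per the series text. The labels do not say whether libraries whose codes share a number came from separate wells. P-values here cover spread between libraries, at most well-to-well, and nothing more, and genotype cannot be told apart from culture. Seeding density, medium, supplements and time differ together between the days and cannot be told apart.

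PTH1R is a receptor of osteoblast lineage cells and kidney for PTH and PTH-related protein. Bound by hormone, it activates the stimulatory G protein encoded by Gnas, which makes adenylyl cyclase produce cAMP. The cAMP frees PKA catalytic subunits (Prkaca among them) from regulatory subunits (Prkar1a among them), and PKA then phosphorylates CREB (Creb1). Phosphodiesterases such as PDE4D degrade cAMP, and a short product of Crem, itself made in response to cAMP, represses the same promoters. Intermittent PTH builds bone, and mice without Nmp4 are known for a stronger bone gain under it.

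Totals per library ran from 31285188 to 47635039 counts over genes. Beyond counting error, libraries of a group varied by a coefficient of variation of 4.25%, so that small changes can be called. In the libraries labelled KO, Zfp384 RNA was above its WT level. It had 117 ± 5.03 CPM in KO and 88.1 ± 3.17 CPM in WT at day 7, and 91.5 ± 1.73 CPM in KO and 81.9 ± 1.54 CPM in WT at day 3. The labels do not name the deleted part of the gene, so a count over the whole gene does not check the label. Genotype differences were widespread, with 86% of all genes called at day 7 and 86.4% at day 3 by edgeR's quasi-likelihood test at a Benjamini-Hochberg adjusted p under 0.05. Log2 fold changes are KO minus WT or day 7 minus day 3, each with an approximate standard error (SE). These comparisons share libraries pairwise, and the interaction uses all 16.

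The promoter windows of Pth1r are shown first because it had the largest changes and 3 annotated start sites. Mouse Pth1r is a minus strand gene of chromosome 9, between 110722085 and 110747145 (build mm10, positions as deposited), and its deposited length over exons is 2721 bases. RefSeq's promoter windows (GRCm38.p6, from 250 bases before to 50 after a start) include 1 at the outer end of the gene and 2 farther in. The windows of Prkar1a and Prkaca are shown because they hold the cAMP response motif in its full or short form. Capitals mark TGACGTCA, the cAMP response element, or its short form TGACG, which reads as CGTCA on the opposite strand; both strands were searched. Each full motif also holds the short form on both strands.

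Pth1r, outer start (chr9:110747096-110747395, minus strand): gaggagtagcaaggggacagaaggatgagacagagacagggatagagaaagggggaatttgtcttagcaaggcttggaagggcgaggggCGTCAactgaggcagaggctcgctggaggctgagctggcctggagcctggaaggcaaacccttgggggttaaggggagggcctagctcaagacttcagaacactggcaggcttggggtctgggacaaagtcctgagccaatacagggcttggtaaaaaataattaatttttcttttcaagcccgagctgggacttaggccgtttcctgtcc

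Pth1r, middle start (chr9:110743637-110743936, minus strand): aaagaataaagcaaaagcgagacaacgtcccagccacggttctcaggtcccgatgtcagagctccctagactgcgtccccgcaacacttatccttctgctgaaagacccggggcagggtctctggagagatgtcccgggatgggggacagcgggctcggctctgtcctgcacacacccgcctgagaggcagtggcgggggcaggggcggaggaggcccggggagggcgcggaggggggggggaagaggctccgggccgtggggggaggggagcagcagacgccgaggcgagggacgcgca

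Pth1r, inner start (chr9:110742561-110742860, minus strand): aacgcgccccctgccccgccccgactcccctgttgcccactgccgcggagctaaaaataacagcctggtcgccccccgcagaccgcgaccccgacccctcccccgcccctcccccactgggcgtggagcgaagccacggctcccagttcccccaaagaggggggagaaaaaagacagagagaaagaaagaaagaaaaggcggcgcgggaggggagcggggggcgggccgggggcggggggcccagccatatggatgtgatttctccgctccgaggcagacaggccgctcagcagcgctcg

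Prkar1a (chr11:109650699-109650998, plus strand): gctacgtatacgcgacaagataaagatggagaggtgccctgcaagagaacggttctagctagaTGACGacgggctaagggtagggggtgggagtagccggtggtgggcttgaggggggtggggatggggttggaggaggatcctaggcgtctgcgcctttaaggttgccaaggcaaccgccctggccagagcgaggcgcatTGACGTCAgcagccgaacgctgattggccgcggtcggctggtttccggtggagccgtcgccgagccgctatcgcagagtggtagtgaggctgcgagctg

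Prkaca, outer start (chr8:83972728-83973027, plus strand): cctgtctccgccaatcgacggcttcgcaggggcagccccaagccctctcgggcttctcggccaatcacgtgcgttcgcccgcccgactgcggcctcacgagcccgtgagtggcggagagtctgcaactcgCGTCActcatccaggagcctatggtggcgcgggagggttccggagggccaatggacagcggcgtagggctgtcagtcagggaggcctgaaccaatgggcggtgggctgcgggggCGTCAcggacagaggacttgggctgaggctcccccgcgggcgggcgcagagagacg

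The outer window of Pth1r held 1 short motif, 161 bases before the start, and its middle and inner windows held none. In the printed window of Prkar1a the full motif lay 49 bases before the start, and an overlapping window of that gene held the same site. The printed window of Prkaca held 2 short motifs, 120 and 6 bases before the start, and the other of its 2 windows held neither form. Among the 6 windows of Prkar1a, the remaining ones held only the short form or neither form. Of all 32851 windows, 1.79% held the full motif and 20.8% the short form. Gnas had the short form in 3 of 4 windows, but 2 of these overlap and hold the same site. The single windows of Pde4d and Creb1 held neither form and no window of Crem was used. These matches describe letters only, and counts per gene do not show which start site was used.

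Before the single genes, the calls over the 7 were close to those over all genes. Between genotypes 6 of the 7 were called at day 7 (86% of all genes) and 7 of 7 at day 3 (86.4%). At day 7 there were 4 members higher and 2 lower in KO (41.7% and 44.3% of all genes), and at day 3 there were 5 higher and 2 lower (43% and 43.4%). Between days, 4 of 7 were called in KO (79.9% of all genes) and 4 of 7 in WT (67.3%), with 1 higher and 3 lower in KO (40.6% and 39.3% of all genes) and 1 higher and 3 lower in WT (32.3% and 34.9%). The genotype by day interaction was called for 4 of 7 (66% of all genes), with 1 higher and 3 lower (32.5% and 33.5%). The groups of libraries did not overlap for 6 members between genotypes at day 7 (79.9% of all genes) and for 7 at day 3 (82.5%). The counts thus stand near the background, and the members differ in the size of their changes. Only Pth1r and Pde4d reached 2-fold between genotypes, Pth1r at both days and Pde4d at day 3, against 30.7% of all genes at day 7 and 29% at day 3.

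**Figure D1:**
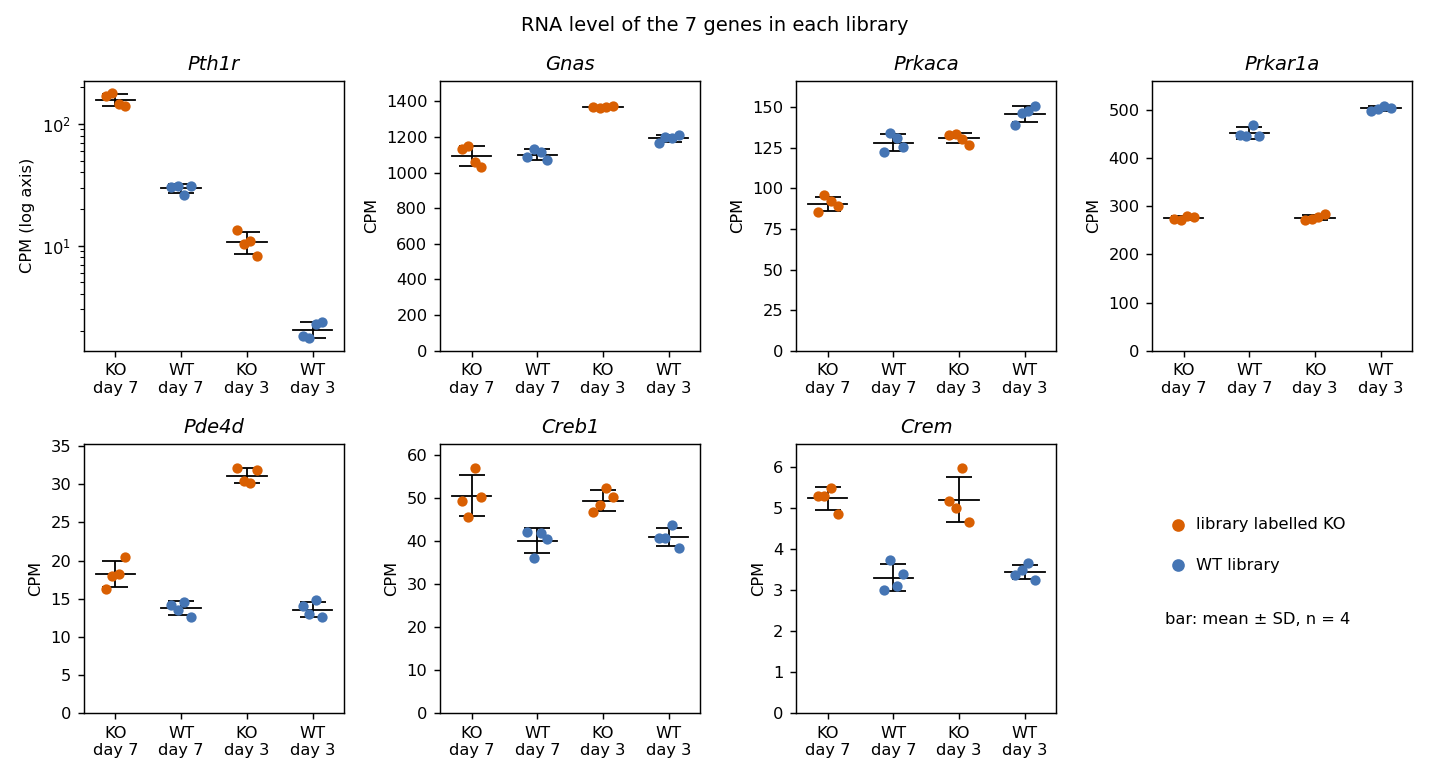
RNA level of each of the 7 genes in CPM (y axis, logarithmic for Pth1r and from 0 for the others) in the 4 libraries of each group (x axis), with black bars for the mean ± SD. Pth1r stood at 141 to 179 CPM in KO day 7 libraries, 25.9 to 31.1 CPM in WT day 7, 8.29 to 13.5 CPM in KO day 3 and 1.75 to 2.36 CPM in WT day 3, with no overlap between groups.

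Pth1r had 170, 179, 145 and 141 CPM in the KO day 7 libraries 13 to 16, against 30.3, 31.1, 25.9 and 30.9 CPM in the WT day 7 libraries 9, 10, 10b and 11. It had 13.5, 10.3, 10.8 and 8.29 CPM in the KO day 3 libraries 5 to 8, against 1.79, 1.75, 2.26 and 2.36 CPM in the WT day 3 libraries 1, 1b, 3 and 4. Every KO library lay above every WT library of its day, and every day 7 library above every day 3 library of its genotype. The receptor's RNA was 5.37-fold higher in KO at day 7 (log2 2.42 ± 0.10 SE, adjusted p = 1.87e-12) and 5.27-fold higher at day 3 (log2 2.40 ± 0.18, adjusted p = 4.95e-09). Day 7 was 14.7-fold above day 3 in KO (log2 3.88 ± 0.12, adjusted p = 2.95e-14) and 14.4-fold above it in WT (log2 3.85 ± 0.16, adjusted p = 4.91e-12). The difference between these 2 day effects was 0.03 ± 0.24 on the log2 scale (adjusted p = 0.932) and was not detectable at this precision.

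In size, the change of Pth1r between days exceeded that of 98.5% of all genes in KO and 99.5% in WT, and its change between genotypes exceeded that of 89.6% at day 7 and 90.7% at day 3. Genes of chromosome 9 had median log2 changes between KO and WT of -0.24 at day 7 and -0.25 at day 3. The direction of Pth1r is opposite to these medians, and its change relative to them was 2.66 and 2.64.

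In such bulk samples, fewer cells of a type and less RNA per cell cannot be told apart, and Pth1r is a gene of the osteoblast lineage. The 9 osteoblast markers (Runx2, Sp7, Alpl, Ibsp, Bglap, Bglap2, Dmp1, Phex and Spp1) summed to 6918 to 9182 CPM in KO day 7 libraries, 2833 to 3408 CPM in WT day 7, 820 to 892 CPM in KO day 3 and 1447 to 1573 CPM in WT day 3. Spp1 carried most of each sum. It had 5923 ± 1257 CPM in KO and 1887 ± 243 CPM in WT at day 7, and 544 ± 4.73 CPM in KO and 1165 ± 66.2 CPM in WT at day 3. All 9 markers were called higher at day 7 than at day 3 in both genotypes (40.6% of all genes in KO and 32.3% in WT), as Pth1r was. At day 7, 7 of the 9 were higher and 1 lower in KO (41.7% and 44.3% of all genes). At day 3 the marker sum ran opposite to the receptor, with 1 marker higher and 5 lower in KO (43% and 43.4%) while Pth1r was higher. The part of cell composition in the receptor's level was not tested.

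The labelled cell type was compared with 13 stromal markers, all measured. They summed to 28426 to 64851 CPM over the libraries, most of it collagen I, so the sum does not settle the cell type. Of the 13, 6 were called higher and 7 lower in KO at day 7, and 5 higher and 7 lower at day 3. At day 7 Thy1 had 0.0608 ± 0.0374 CPM in KO and 13.95 ± 1.196 CPM in WT. Cxcl12 had 150 ± 10.96 CPM in KO and 5914 ± 303.7 CPM in WT. Pdgfrb went the other way, with 784 ± 46.48 CPM in KO and 435 ± 8.448 CPM in WT. The 10 markers of macrophages and other blood cells summed to 19.4 to 23.0 CPM in KO day 7, 142 to 163 CPM in WT day 7, 32.8 to 40.4 CPM in KO day 3 and 129 to 142 CPM in WT day 3, so they were lower in KO. The 5 cartilage markers summed to 96.6 to 112 CPM in KO day 7, 811 to 877 CPM in WT day 7, 52.6 to 68.3 CPM in KO day 3 and 4461 to 5019 CPM in WT day 3, with Acan at 0 counts in every WT library. Col2a1 carried most of the WT sums, with 16.1 ± 0.945 CPM in KO and 808 ± 27.0 CPM in WT at day 7, while 4 of the 5 were called higher and 1 lower in KO at day 7, and 2 higher and 3 lower at day 3. The 5 measured fat cell markers summed to 60.4 to 67.7 CPM in KO day 7, 202 to 230 CPM in WT day 7, 25.4 to 27.5 CPM in KO day 3 and 298 to 312 CPM in WT day 3. Of the endothelial markers Kdr was measured, at 12.8 to 13.9 CPM in KO day 7, 0.439 to 0.846 CPM in WT day 7, 1.82 to 2.45 CPM in KO day 3 and 0.135 to 0.346 CPM in WT day 3. The cultures of the 2 genotypes thus differed in more than the genes described here.

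Gnas had the highest CPM of the 7 members, without regard to gene length. Per kilobase at day 7 it had 134 CPM beside 82.9 for Prkar1a in KO, but 135 beside 136 in WT. At day 3 these values were 167 beside 83.2 in KO and 146 beside 151 in WT. The plus strand locus of Gnas on chromosome 2 (174284320 to 174346742) is imprinted, and besides the stimulatory α subunit it gives the transcripts XLαs and Nesp55. Its counts are a sum over that locus, and because the sources used here leave the counting strand unnamed, reads of the antisense transcript Nespas cannot be told apart from it. Libraries of KO day 7 had 1131, 1149, 1058 and 1031 CPM and those of WT day 7 had 1085, 1133, 1118 and 1068 CPM, so that the groups overlapped. At day 3 there were 1367, 1363, 1368 and 1377 CPM in KO, all above the 1164, 1198, 1196 and 1211 CPM in WT. The log2 change between KO and WT was -0.01 ± 0.03 at day 7 (adjusted p = 0.754) and 0.20 ± 0.03 at day 3 (adjusted p = 4.17e-06), and the interaction was -0.21 ± 0.05 (adjusted p = 0.00034). Gnas fell by 0.33 on the log2 scale in KO between the days (adjusted p = 7.75e-10) and by 0.11 in WT (adjusted p = 0.00389).

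The scaling matters for members with small changes. The library sizes implied by the authors' scaled columns move the median change of all genes between KO and WT to 0.55 at day 7 and 0.49 at day 3, where the scaling used here gives -0.028 and -0.0040. Under them Gnas was higher in KO at day 7 as well (log2 0.57, adjusted p = 7.71e-15), a value close to that median, and its interaction was -0.13 (adjusted p = 0.072). Under total counts alone Gnas was lower in KO at day 7 (-0.14, adjusted p = 0.000259), beside a median of -0.16. Shares within a library do not depend on this choice. Shares and levels per kilobase do depend on gene length, and the deposited length of Gnas, 8171 bases, is over exons of its whole locus. By CPM per kilobase, Gnas made up 37.3% ± 0.827 of the summed α subunits of the s, q, 11 and i classes in KO and 30.8% ± 0.246 in WT at day 7. At day 3 the share was 31.6% ± 0.205 in KO and 27.6% ± 0.222 in WT. Both differences had an exact two-sided permutation p of 0.0286, the smallest that 4 against 4 libraries allow, and 0.0408 after adjustment over 20 tests of shares. Gna11, an α subunit that couples receptors to phospholipase C, was lower in KO, with 99.7 ± 5.56 CPM against 190 ± 5.04 CPM in WT at day 7. Per kilobase at day 7, Gnai2, an α subunit of the i class, had 125 ± 6.24 CPM in KO and 172 ± 4.80 CPM in WT. Gnas had 134 ± 6.93 CPM per kilobase in KO and 135 ± 3.62 in WT. The direction of Gnai2 at day 7 turned to 0.11 on the log2 scale under the authors' implied sizes.

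Prkar1a, a regulatory subunit that holds PKA inactive, was lower in KO at both days. It is a plus strand gene of chromosome 11 (109650949 to 109669648). It had 273, 272, 279 and 278 CPM in KO day 7 libraries, against 448, 446, 469 and 445 CPM in WT day 7. It had 272, 272, 278 and 284 CPM in KO day 3 libraries, against 498, 501, 509 and 504 CPM in WT day 3. All 8 KO libraries lay below all 8 WT libraries. Its log2 change was -0.71 ± 0.03 at day 7 (adjusted p = 2.25e-19) and -0.86 ± 0.03 at day 3 (adjusted p = 2.62e-21), and the interaction was 0.15 ± 0.04 (adjusted p = 0.00197). Between days it fell by 0.16 in WT (adjusted p = 2.64e-05) and was at -0.00 ± 0.03 in KO (adjusted p = 0.896). Genes of chromosome 11 had median changes between KO and WT of -0.46 at day 7 and -0.44 at day 3. Relative to these, Prkar1a was at -0.26 and -0.43, and the part of the chromosome in its level was not tested.

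Prkaca, the main catalytic subunit gene, is a plus strand gene of chromosome 8 (83972978 to 83996442). It had 85.3, 95.7, 92.1 and 89.1 CPM in KO day 7 libraries, against 122, 134, 131 and 125 CPM in WT day 7. At day 3 it had 133, 133, 131 and 127 CPM in KO, against 139, 146, 147 and 151 CPM in WT. The KO libraries lay below the WT libraries at both days, by a smaller margin at day 3. The log2 change was -0.50 ± 0.04 at day 7 (adjusted p = 4.9e-13) and -0.16 ± 0.04 at day 3 (adjusted p = 0.000331), with an interaction of -0.35 ± 0.05 (adjusted p = 1.58e-06). Under the library sizes implied by the authors' scaled columns the sign turned, to 0.08 at day 7 (adjusted p = 0.118) and 0.34 at day 3 (adjusted p = 2.38e-08), both below the median of all genes under that scaling. Between days Prkaca fell by 0.53 in KO (adjusted p = 1.88e-13) and by 0.19 in WT (adjusted p = 6.1e-05).

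The makeup of PKA subunit transcripts differed between the genotypes at both days, while subunit protein was not measured. By CPM per kilobase, Prkar1a made up 69.1% ± 0.828 of the 4 regulatory subunit genes in KO and 73.9% ± 0.718 in WT at day 7, and 53.0% ± 0.253 in KO and 74.0% ± 0.282 in WT at day 3 (exact permutation p = 0.0286 and adjusted p = 0.0408 for both). The day 3 difference went with Prkar2a, a regulatory subunit that anchoring proteins bind, at 164 ± 5.53 CPM in KO and 67.6 ± 1.43 CPM in WT (log2 1.28 ± 0.04, adjusted p = 6.89e-22). At day 7 Prkar2a had 62.4 ± 1.91 CPM in KO and 62.9 ± 4.60 CPM in WT (adjusted p = 0.817). The summed regulatory over the summed catalytic subunits gave a ratio of 2.19 ± 0.0681 in KO and 2.45 ± 0.0958 in WT at day 7. At day 3 the ratio was 2.23 ± 0.0820 in KO and 2.54 ± 0.0562 in WT (exact permutation p = 0.0286, adjusted p = 0.0408 at both days). Prkaca made up 65.9% ± 1.81 of the 2 catalytic genes in KO and 68.0% ± 0.948 in WT at day 7 (exact permutation adjusted p = 0.127), and 74.5% ± 0.851 in KO and 72.4% ± 0.657 in WT at day 3 (adjusted p = 0.0408).

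**Figure D2:**
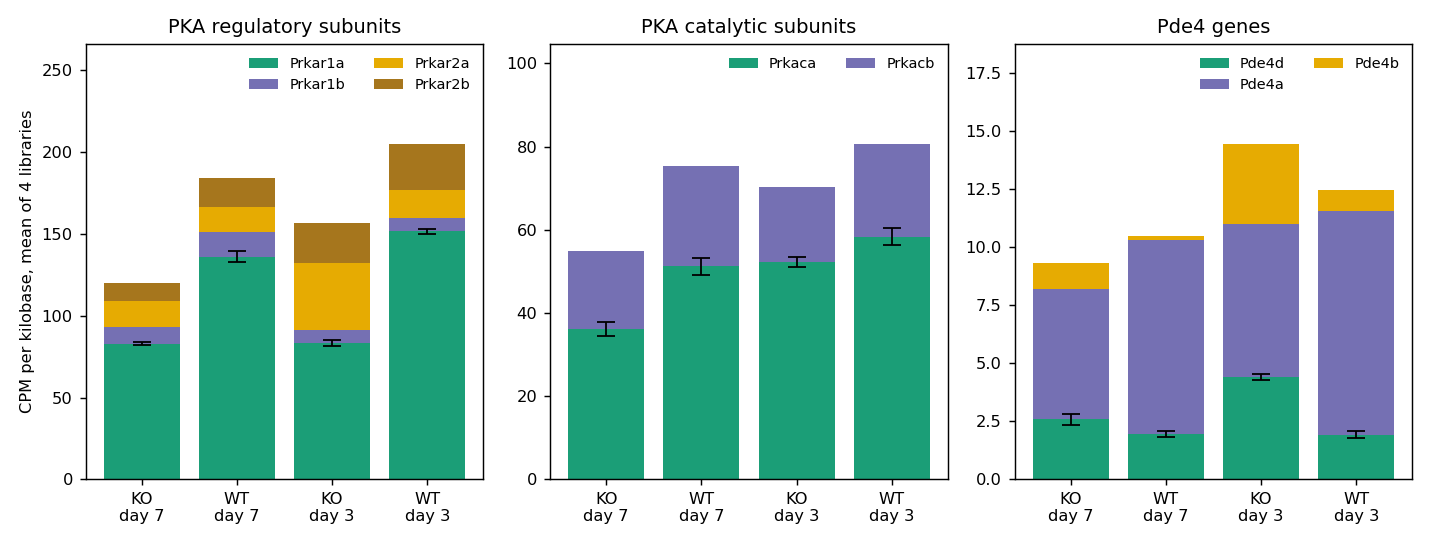
Mean level in CPM per kilobase (y axis, from 0) of the PKA regulatory subunits, the PKA catalytic subunits and the measured Pde4 genes, stacked by gene, in each group (x axis). Error bars are the SD over 4 libraries of the lowest segment. The Prkar1a segment stood at 82.9 in KO and 136 in WT at day 7, and at 83.2 in KO and 151 in WT at day 3.

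Of 8 measured PKA subunit and inhibitor genes, 0 were higher and 7 lower in KO at day 7 (41.7% and 44.3% of all genes). At day 3, 1 was higher and 6 lower (43% and 43.4%). Under the authors' implied sizes, 2 of these genes were higher and 3 lower at day 7, and 5 higher and 2 lower at day 3. Their median log2 change was -0.58 at day 7 and -0.24 at day 3, beside -0.028 and -0.0040 over all genes. Pkig, which encodes an inhibitor of PKA, had 11.7 ± 1.45 CPM in KO and 23.8 ± 1.09 CPM in WT at day 7, and 19.0 ± 0.678 CPM in KO and 37.2 ± 0.658 CPM in WT at day 3. Prkacb, the other catalytic subunit gene, had 95.2 ± 4.60 CPM in KO and 122 ± 1.50 CPM in WT at day 7, a direction that turned to 0.22 on the log2 scale with those sizes.

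Pde4d was the phosphodiesterase of the 7. It is a long plus strand gene of chromosome 13 (108654177 to 109955969), with long and short isoforms that a count per gene adds up. It had 16.3, 17.98, 18.3 and 20.4 CPM in KO day 7 libraries, against 14.2, 13.6, 14.6 and 12.6 CPM in WT day 7. At day 3 it had 32.1, 30.4, 30.1 and 31.8 CPM in KO, against 13.998, 12.97, 14.8 and 12.6 CPM in WT. The KO groups lay above the WT groups at both days and the 2 WT groups overlapped each other. The log2 change between KO and WT was 0.40 ± 0.07 at day 7 (adjusted p = 2.63e-06) and 1.19 ± 0.06 at day 3 (adjusted p = 1.3e-16). The interaction, -0.79 ± 0.09 (adjusted p = 1.32e-08), was the largest of the members, since Pde4d fell by 0.77 between days in KO (adjusted p = 2.96e-12) and was at 0.02 ± 0.07 in WT (adjusted p = 0.846).

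Chromosome 13 had median changes between KO and WT of 0.70 at day 7 and 0.82 at day 3. Relative to its chromosome, Pde4d was at -0.30 at day 7, which turns the sign, and at 0.37 at day 3, and the part of the chromosome in its level was not tested. Among the 3 measured Pde4 genes its share of the summed CPM per kilobase was 27.8% ± 1.83 in KO and 18.6% ± 1.44 in WT at day 7, and 30.6% ± 1.29 in KO and 15.5% ± 1.14 in WT at day 3 (exact permutation p = 0.0286 and adjusted p = 0.0408 for both). The sister genes moved apart, with Pde4b at 6.84 ± 1.05 CPM in KO and 1.14 ± 0.196 CPM in WT at day 7. Pde4a had 28.7 ± 1.65 CPM in KO and 42.8 ± 1.34 CPM in WT.

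Creb1, which encodes the transcription factor that PKA phosphorylates, was slightly higher in KO. It is a plus strand gene of chromosome 1 (64532804 to 64604548). It had 49.4, 45.7, 57.0 and 50.4 CPM in KO day 7 libraries, against 42.1, 36.1, 41.9 and 40.6 CPM in WT day 7. At day 3 it had 46.9, 48.4, 52.5 and 50.2 CPM in KO, against 40.7, 40.9, 43.8 and 38.6 CPM in WT. The groups did not overlap at either day, and the log2 change was 0.33 ± 0.06 at day 7 (adjusted p = 7.45e-06) and 0.27 ± 0.06 at day 3 (adjusted p = 0.000119). Between days it was at 0.03 ± 0.06 in KO (adjusted p = 0.597) and -0.03 ± 0.06 in WT (adjusted p = 0.661), with an interaction of 0.06 ± 0.08 (adjusted p = 0.504).

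Crem, which had 111 to 210 counts per library, is a minus strand gene of chromosome 18 (3266354 to 3337589). Its count adds the activator and repressor forms of CREM, among them the short cAMP-induced repressor, which a count per gene cannot separate. It had 5.30, 5.28, 5.50 and 4.86 CPM in KO day 7 libraries, against 3.01, 3.73, 3.10 and 3.39 CPM in WT day 7. At day 3 it had 5.17, 5.01, 5.97 and 4.67 CPM in KO, against 3.36, 3.50, 3.66 and 3.25 CPM in WT. Every KO library lay above every WT library. The log2 change was 0.66 ± 0.10 at day 7 (adjusted p = 6.56e-07) and 0.59 ± 0.10 at day 3 (adjusted p = 3.3e-06). Chromosome 18 had medians of 0.61 at day 7 and 0.68 at day 3, so that relative to its chromosome Crem was at 0.06 and -0.09, and that part was not tested. Between days it was at 0.01 ± 0.10 in KO (adjusted p = 0.915) and -0.06 ± 0.10 in WT (adjusted p = 0.619).

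**Figure D3:**
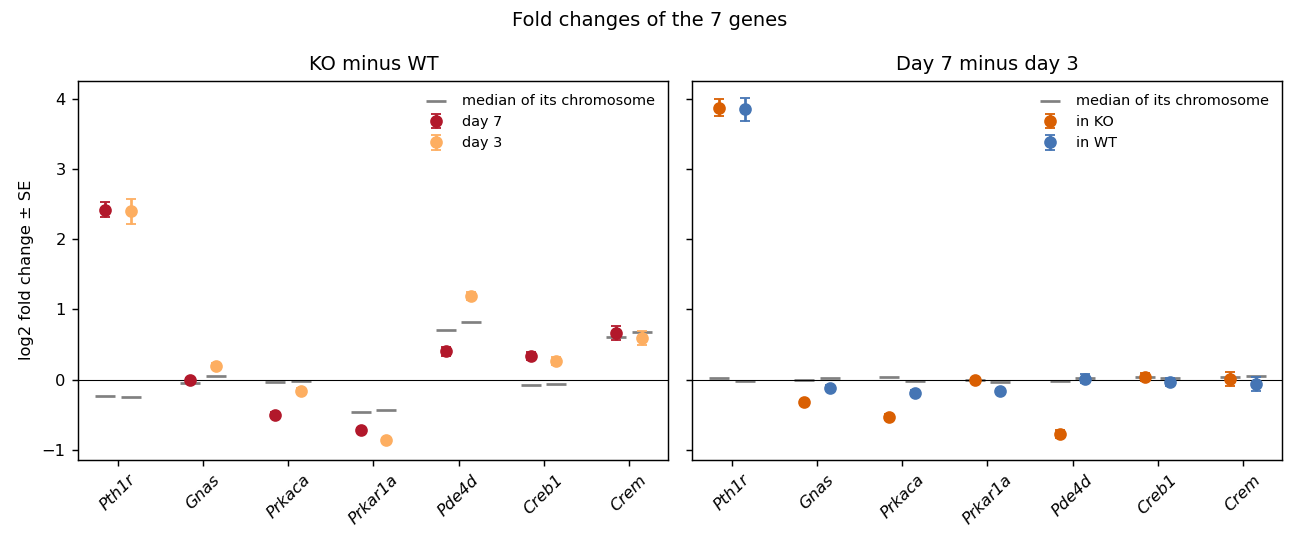
Log2 fold change ± SE of each of the 7 genes (y axis), for KO minus WT at each day (left) and day 7 minus day 3 in each genotype (right), with a grey dash at the median of the gene's chromosome in the same comparison. Pth1r stood at 2.42 and 2.40 between genotypes and 3.88 and 3.85 between days. Between genotypes, all members but Pth1r and Creb1 lay on the same side of 0 as their chromosomes' medians at both days.

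The wider pathway was read from 12 lists of 141 genes, of which 118 were measured (Pth, Pthlh, Pth2 and Pth2r were not analysed here). Between KO and WT, 102 of the 118 were called at day 7 (47 higher, 55 lower) and 104 at day 3 (50 higher, 54 lower), near the shares of all genes. Of all genes, 41.7% were higher and 44.3% lower in KO at day 7, and 43% and 43.4% at day 3. These shares are the background for each list count between genotypes below, and the counts of these short lists are description only. The median log2 change of the 118 was -0.016 at day 7 and -0.014 at day 3, and the median absolute change was 0.71 and 0.77, beside 0.59 and 0.57 over all genes. The genes named below have the largest called changes of their lists in at least 1 comparison. Gna11, Prkacb and Pde4a, named above, fall outside that rule and were chosen after their values were seen.

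Of 10 measured genes of other receptors that couple to the stimulatory G protein, among them the receptor partners Ramp1 and Ramp2, 3 were higher and 6 lower in KO at day 7, and 3 were higher and 7 lower at day 3 (median log2 -0.73 and -0.96), but 5 higher and 5 lower at day 7 under the library sizes implied by the authors' scaled columns. Calcrl, the receptor for adrenomedullin and related peptides, had 6.16 ± 0.728 CPM in KO and 0.429 ± 0.135 CPM in WT at day 7 (log2 3.83 ± 0.17, adjusted p = 1.01e-18). Both partner genes were lower in KO, though for Ramp1 at day 7 the sign turned under the authors' implied sizes. Ramp2 had 0.411 ± 0.105 CPM in KO and 6.64 ± 1.07 CPM in WT at day 7 (log2 -4.00 ± 0.19, adjusted p = 1.46e-17), and Ramp1 had 0.617 ± 0.132 CPM in KO and 3.96 ± 0.224 CPM in WT at day 3 (log2 -2.67 ± 0.15, adjusted p = 3.97e-16). At day 7 Ramp1 had 10.9 ± 1.20 CPM in KO and 13.95 ± 0.685 CPM in WT (log2 -0.35 ± 0.08, adjusted p = 0.000122), and 0.23 on the log2 scale under those sizes (adjusted p = 0.0107). Tshr, the thyrotropin receptor, had 0 to 3 counts in each KO library, too few for a fold, against 7.57 ± 0.581 CPM in WT at day 7 and 4.59 ± 0.468 CPM in WT at day 3.

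Among 14 G protein subunits, 8 were higher and 3 lower in KO at day 7, and 8 were higher and 1 lower at day 3 (median log2 0.22 and 0.29). Gnb1, a β subunit, had 383 ± 5.57 CPM in KO and 202 ± 3.94 CPM in WT at day 7, and 599 ± 7.14 CPM in KO and 248 ± 0.928 CPM in WT at day 3. Of 13 genes of receptor desensitisation and scaffolding, 3 were higher and 8 lower at day 7, and 7 higher and 6 lower at day 3, but 7 were higher and 5 lower at day 7 with the sizes implied by the authors' columns. Rgs2, a regulator of G protein signalling that PTH induces in osteoblasts, had 15.1 ± 1.23 CPM in KO and 0.908 ± 0.153 CPM in WT at day 7 (log2 4.05 ± 0.13, adjusted p = 1.21e-21). Rgs5, another regulator of this family, had 0.0760 ± 0.0410 CPM in KO and 3.41 ± 0.388 CPM in WT at day 7.

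Of 8 adenylyl cyclases, 4 were higher and 3 lower in KO at day 7, and 2 were higher and 4 lower at day 3, but 4 higher and 2 lower at day 3 with the sizes implied by the authors' columns. Adcy4 had 1.96 ± 0.424 CPM in KO and 14.2 ± 0.438 CPM in WT at day 7 (log2 -2.86 ± 0.11, adjusted p = 1.27e-19). Adcy2 had 0.409 ± 0.191 CPM in KO and 9.09 ± 0.452 CPM in WT at day 3 (log2 -4.44 ± 0.16, adjusted p = 9.08e-21). Both Epac genes, whose products are activated by cAMP without PKA, were lower in KO at both days. Rapgef3 had 21.7 ± 0.855 CPM in KO and 61.2 ± 1.47 CPM in WT at day 7, and 4.85 ± 0.866 CPM in KO and 46.0 ± 1.61 CPM in WT at day 3. The anchoring proteins that place PKA in the cell counted 2 higher and 7 lower of 11 at day 7, and 3 higher and 7 lower at day 3, but 7 higher and 2 lower, and 6 higher and 2 lower, with the sizes implied by the authors' columns. Akap12 had 27.7 ± 1.76 CPM in KO and 372 ± 6.79 CPM in WT at day 7 (log2 -3.75 ± 0.04, adjusted p = 8.54e-33).

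The phosphodiesterases held large changes, with a median absolute log2 change of 2.06 at day 7 and 2.42 at day 3, in both directions (6 higher and 7 lower of 14 at day 7, 7 and 7 at day 3, and 7 higher and 5 lower, then 7 and 6, with the sizes implied by the authors' columns). Pde3b, whose product degrades cAMP and is inhibited by cGMP, had 41.7 ± 2.11 CPM in KO and 1.64 ± 0.135 CPM in WT at day 7 (25.4-fold, log2 4.67 ± 0.07, adjusted p = 1.11e-29). At day 3 it had 31.2 ± 0.497 CPM in KO and 1.61 ± 0.133 CPM in WT (19.3-fold, adjusted p = 1.25e-28). Pde2a, which cGMP stimulates, had 1.25 ± 0.100 CPM in KO and 11.5 ± 1.10 CPM in WT at day 7, and 1.96 ± 0.153 CPM in KO and 45.5 ± 0.664 CPM in WT at day 3. Pde7b, a cAMP-specific enzyme, had 0.893 ± 0.123 CPM in KO and 13.5 ± 0.431 CPM in WT at day 7.

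The CREB family and its coactivators changed little, with no gene past 2-fold between genotypes (4 higher and 2 lower of 8 at day 7, 6 higher and 2 lower at day 3, and 8 higher and 0 lower at both days with the sizes implied by the authors' columns). Crtc3, a coactivator held in the cytoplasm until cAMP rises, had 39.9 ± 2.50 CPM in KO and 28.7 ± 3.00 CPM in WT at day 7. Of 6 salt-inducible kinases and class IIa deacetylases, which hold PTH target genes in check, 1 was higher and 4 lower at both days (3 higher and 2 lower at day 7, and 2 higher and 1 lower at day 3, with the sizes implied by the authors' columns). Sik2 had 13.5 ± 0.737 CPM in KO and 43.3 ± 1.53 CPM in WT at day 7 (log2 -1.68 ± 0.05, adjusted p = 4.2e-22). Hdac4 had 47.7 ± 3.19 CPM in KO and 23.3 ± 1.64 CPM in WT at day 7 (log2 1.03 ± 0.05, adjusted p = 1.47e-16).

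Among 29 measured genes known to respond to cAMP or PTH, 19 were higher and 8 lower in KO at day 7 (41.7% and 44.3% of all genes), and 15 were higher and 10 lower at day 3 (43% and 43.4%), with median log2 changes of 0.66 and 0.35. Under the authors' implied sizes 22 were higher and 5 lower at day 7, and 19 higher and 9 lower at day 3. Nr4a2, an orphan nuclear receptor that PTH induces in osteoblasts, had 24.2 ± 2.23 CPM in KO and 2.43 ± 0.329 CPM in WT at day 7 (log2 3.31 ± 0.09, adjusted p = 9.02e-24). Wnt4, a Wnt ligand, had 8.43 ± 1.07 CPM in KO and 0.823 ± 0.195 CPM in WT at day 7. The collagenase gene Mmp13, a PTH target in osteoblasts, was lower in KO, with 188 ± 22.7 CPM against 1070.1 ± 52.7 CPM in WT at day 7 and 17.6 ± 1.02 CPM against 273 ± 10.4 CPM in WT at day 3. Bmp2, a bone morphogenetic protein, had 17.8 ± 1.54 CPM in KO and 3.22 ± 0.850 CPM in WT at day 7, and 0.546 ± 0.255 CPM in KO and 1.35 ± 0.484 CPM in WT at day 3. The list holds Crem, Pde4b and Pde4d, and its members are also known to answer to other signals.

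**Figure D4:**
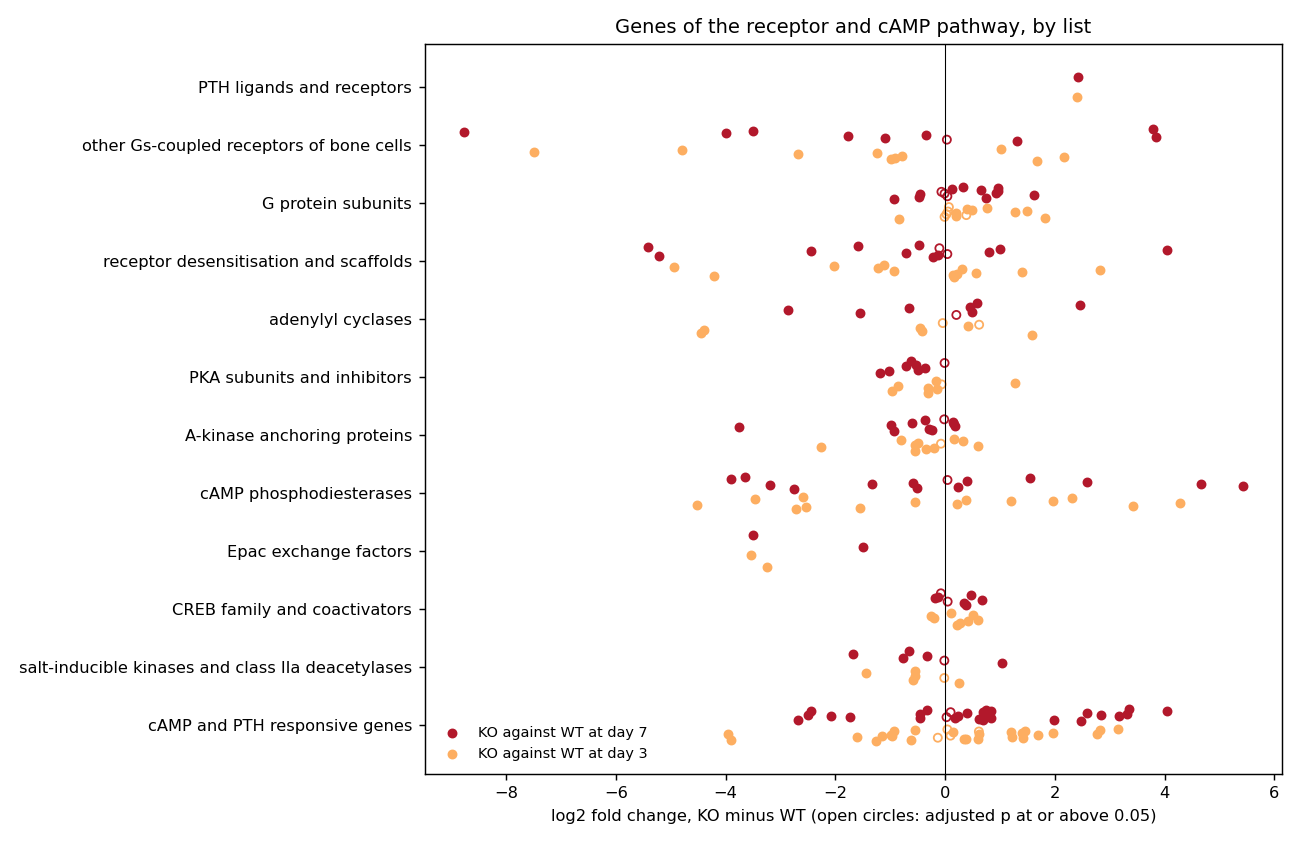
Log2 fold change, KO minus WT (x axis), of each measured gene of the 12 lists (y axis), at day 7 and, below it, at day 3; open circles did not pass the adjusted p of 0.05. Phosphodiesterases and other receptors reached far to both sides of 0, while no gene of the CREB family reached 2-fold; the 2 points farthest to the left are Tshr, whose KO libraries held 0 to 3 counts.

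Between days, the pathway as a whole showed no common direction. Of the 118, 94 were called between days in KO (46 higher, 48 lower) and 86 in WT (38 higher, 48 lower). Of all genes, 40.6% were higher and 39.3% lower in KO, and 32.3% and 34.9% in WT. Ptgs2, the inducible prostaglandin synthase, fell by 3.06 on the log2 scale in KO to 11.9 ± 1.80 CPM at day 7, against 99.7 ± 1.35 CPM at day 3. In WT it fell by 2.44 to 6.70 ± 1.11 CPM at day 7, against 36.4 ± 1.03 CPM at day 3. Pde7b rose in both genotypes, by 2.71 ± 0.28 in KO and 3.16 ± 0.10 in WT. Bmp2 rose by 5.00 ± 0.22 in KO and by 1.27 ± 0.22 in WT, with an interaction of 3.73 ± 0.35 (adjusted p = 1.07e-08).

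The genes with a profile nearest to that of Pth1r were named by the smallest root mean square difference in centred log2(CPM + 0.5) over the 16 libraries, among 11769 genes compared. They were Wnt7b (0.42), Lgi2 (0.43), Spock2 (0.47), Igfbp2 (0.49) and Spry1 (0.55). Spock2, a secreted proteoglycan gene, had 133 ± 5.01 CPM in KO and 14.3 ± 0.755 CPM in WT at day 7, and 10.8 ± 0.911 CPM in KO and 2.07 ± 0.0731 CPM in WT at day 3. Igfbp2, which encodes an IGF-binding protein, had 115 ± 5.79 CPM in KO and 37.2 ± 2.53 CPM in WT at day 7. Wnt7b, a Wnt ligand, had 18.9 ± 0.738 CPM in KO and 3.66 ± 0.642 CPM in WT at day 7. In WT at day 3 Wnt7b had 0.0422 ± 0.0231 CPM and Lgi2 had 0.155 ± 0.127 CPM. Both values lie below the added 0.5, so the ranks of these genes depend on it. All 5 had the same order of group means as Pth1r, which is what the measure selects.

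**Figure D5:**
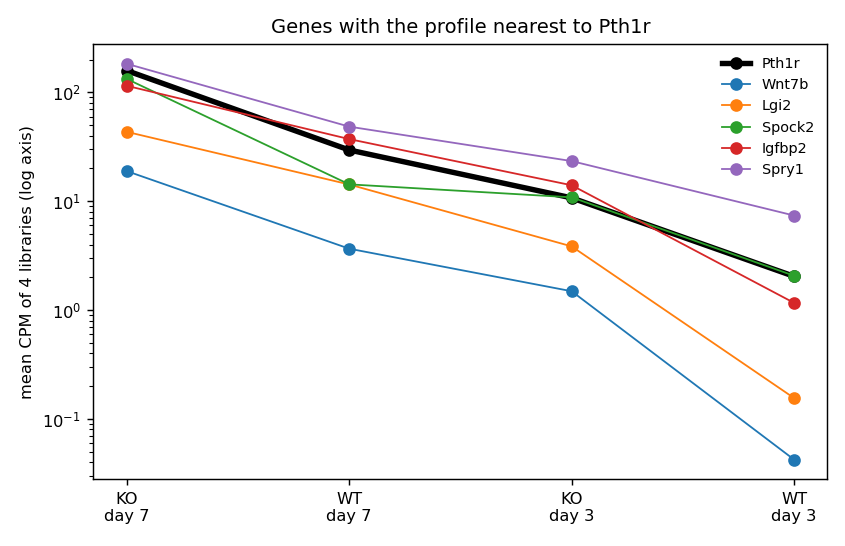
Mean CPM over 4 libraries (y axis, logarithmic) of Pth1r and the 5 genes with the nearest profile, in each group (x axis), with lines joining the values of a gene. Each gene is highest in KO day 7 and lowest in WT day 3, where Pth1r had 158 and 2.04 CPM.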

How the data were processed

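The 16 libraries were strand-specific poly(A) libraries, per the labels' protocols. The deposited table gives whole-number read counts per gene and a gene length in bases. It also gives scaled columns (unit: signal), in which the authors divided each count by 1 constant per library, found by comparing the columns; their sums differ from 1000000. STAR 2.4.2a, featureCounts, edgeR and mm10 are named in the submitters' processing notes without their roles. No source used here names the annotation or counting strand.

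The counts were tested with edgeR 4.0.16 (R 4.3.3, limma 3.58.1): trimmed mean (TMM) scaling, robust quasi-likelihood, 4 group means over 16 libraries, with Benjamini-Hochberg adjustment over 13474 genes for each of 5 comparisons. CPM values use TMM library sizes. A gene was called at an adjusted p under 0.05. The steps were tested on simulated data. Its filter on low counts removed 0 genes, the lowest summed count being 105. Of the symbols, 22 had turned into dates, and 1 symbol occurred more than once. Libraries whose codes share a number (1 and 1b, 10 and 10b) differed by chi-square values per degree of freedom of 2.89 and 4.74, beside 2.33 to 17.9 for the other 22 pairs within groups, and were kept as separate libraries. The labels do not say what the b means, and these values do not settle whether such libraries came from separate wells.

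Named genes are the 7 members, Zfp384, up to 3 genes per list and comparison with the largest called change at a mean of at least 1 CPM, and the 5 genes nearest to Pth1r. Members and lists were chosen with earlier results of these data known. Alternatives were DESeq2 1.42.0, other scalings and filters, leaving out each library, summing libraries that share a number, fitting 2 groups at a time, and subtracting the chromosome's median.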

Additional observations from a re-analysis of the deposited data

Results flagged for a closer look

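Library 10b of WT day 7 stood apart from the other 3 libraries of its group for 2 members, with Prkar1a at 469 CPM and Pth1r at 25.9 CPM. These were 2 of 28 groups examined, and chance alone flags about 1 in 20.

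For 4 members the difference between KO and WT itself differed between day 7 and day 3 in edgeR's quasi-likelihood test, with interactions on the log2 scale of 0.15 for Prkar1a, -0.21 for Gnas, -0.35 for Prkaca and -0.79 for Pde4d. Of 63 other named genes, 25 had a called interaction of at least 2-fold, against 16.2% of all genes; they were named for large changes, so the share is no comparison. Among receptors and their partners the log2 interaction was 2.32 for Ramp1, -2.75 for Ramp2, 1.68 for Calcrl and 1.03 for Adora2b. Among G protein subunits and their regulators it was -1.09 for Gnai1, 1.23 for Gnal, 1.23 for Rgs2, 1.12 for Rgs4, -1.51 for Rgs16 and -1.29 for Grk5. Among adenylyl cyclases it was 2.89 for Adcy2, 1.53 for Adcy4, -1.38 for Adcy1 and 1.83 for Adcy8. For PKA and its anchors it was -1.29 for Prkar2a and -1.48 for Akap12. Among phosphodiesterases it was 1.33 for Pde2a, 2.77 for Pde1b, 1.04 for Pde1a and 2.01 for Pde1c, whose WT libraries held 1 to 4 counts so that this value depends on the prior count. For Rapgef3 it was 1.74. Among responsive genes it was 1.45 for Mmp13, 1.22 for Btg2, -1.20 for Fosb and 3.73 for Bmp2.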

How the results depend on the processing

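No paired analysis was possible because the groups compared share no replicate codes. Over all alternatives 816 member values kept their call and, where called, their direction, or stayed within their spread. Of the rest, 10 moved, 5 reversed, 1 passed the threshold anew and 1 no longer passed it. Some of the 816 could hardly change, because the filter on low counts removed 0 genes and some fits left out a library of a group not compared. Values that were not called could change sign and still count among the 816. Gnas at day 7, for example, ran from -0.037 to 0.015 when single libraries were left out. With library sizes implied by the authors' scaled columns, Gnas at day 7 was at 0.57, Prkaca at 0.080 at day 7 and 0.34 at day 3, and the Gnas interaction at -0.13. Relative to the chromosome's median, Pde4d at day 7 was at -0.30 and Crem at day 3 at -0.090. The cause was not tested. With those sizes 75.4% of called genes were higher in KO at day 7 and 72.9% at day 3, against 48.5% and 49.7% in the reported fit; in WT 34.5% of genes called between days were higher at day 7, against 48.1%. Leaving out each library in turn, Pth1r stayed between 2.36 and 2.48 at day 7 and between 2.27 and 2.50 at day 3, and between days at 3.78 to 4.01 in KO and 3.79 to 3.92 in WT. Depth limits Pth1r in WT day 3 (71 to 111 counts per library) and Crem (111 to 210).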
